A study of Mus musculus with 6 samples.

Results

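Expression of 41 cell cycle and proliferation genes was compared between the epididymal white adipose tissue (eWAT) of cachectic and control mice. The genes were found by symbol among the 54532 genes of the deposited count table, where each symbol matched 1 row, and were divided by phase into 12 genes of G1, 10 genes of S phase and 19 genes of G2 and mitosis (G2/M). Both groups were male C57BL/6 mice, obtained at 6 to 10 weeks of age. The 3 cachectic mice carried a subcutaneous tumor of the mouse lung cancer line LLC (Lewis lung carcinoma), with cachexia defined by a loss of more than 20% of body weight, and the 3 control mice were labelled as controls. The eWAT was harvested on day 21, and each library is the total RNA of mixed tissue, in which a lower level from fewer dividing cells cannot be told apart from less RNA per dividing cell.

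A cell enters division when D-type cyclins with Cdk4 or Cdk6, and then cyclin E with Cdk2, release E2F factors from the retinoblastoma family. In S phase the MCM helicase unwinds the origins while ribonucleotide reductase supplies deoxynucleotides, and in G2 and mitosis cyclin B with Cdk1, the Aurora and Polo kinases, the spindle checkpoint and the anaphase-promoting complex separate the chromosomes. Most mature adipocytes are out of the cycle, and division in fat is mainly that of progenitors, endothelial cells and immune cells.

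The total count was between 18475204 and 18855546 in the control mice and between 14928766 and 17278966 in the cachectic mice. Adiponectin (Adipoq), the defining adipocyte product, stood between 1612 and 4175 CPM (counts scaled to a common library size, with TMM to correct for composition) in the 6 mice. Other adipocyte genes went both ways between the groups and are given below with the marker lists. Control replicate 1 stood apart: the summed level of 6 epithelial genes was 209 CPM there and between 17.8 and 48.2 CPM in the other mice, and Epcam, an epithelial adhesion molecule, was at 46.9 CPM there and at no more than 0.721 CPM elsewhere. Prm1, a sperm protamine, was at 10.5 CPM in that mouse and at no more than 0.933 CPM elsewhere. Results are therefore also given without that mouse where it moved them.

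Most of the genes that fell belong to G2/M. Of the 41 genes, 13 fell and 2 rose in cachectic mice, and 10 of the 13 belong to G2/M, where 18 of 19 genes had a negative fold change and the median log2 fold change was −1.87. Of the 12 genes of G1, 2 fell and 10 did not pass the test, with a median of −0.22. Of the 10 genes of S phase, 1 fell and 2 rose, with a median of −0.11. The median over the 16003 tested genes was −0.00306. All 41 genes passed the filter on low counts and were tested in a single edgeR quasi-likelihood fit over those genes, with Benjamini-Hochberg adjustment and a threshold of 0.05. By this rule 8.63% of all tested genes were lower and 9% were higher. In 21 of the 41 genes every cachectic mouse was below every control mouse, 15 of them among the 19 of G2/M, and in 3 genes every cachectic mouse was above, where 20.1% and 20.4% of all tested genes did so. Without an adjustment, 16 of the 19 genes of G2/M were lower and 0 higher at a p under 0.05, against 17% and 17.4% of all tested genes. DESeq2 called 13 of the 19 lower and limma-voom 10, while limma run on FPKM called 8 with a pseudocount of 1 and 10 with a pseudocount of 0.1. Each of them called 0 higher. Of all genes those tools, in that order, called 12.1%, 8.69%, 8.29% and 8.52% lower and 12.3%, 8.59%, 8.28% and 8.54% higher.

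**Figure D1:**
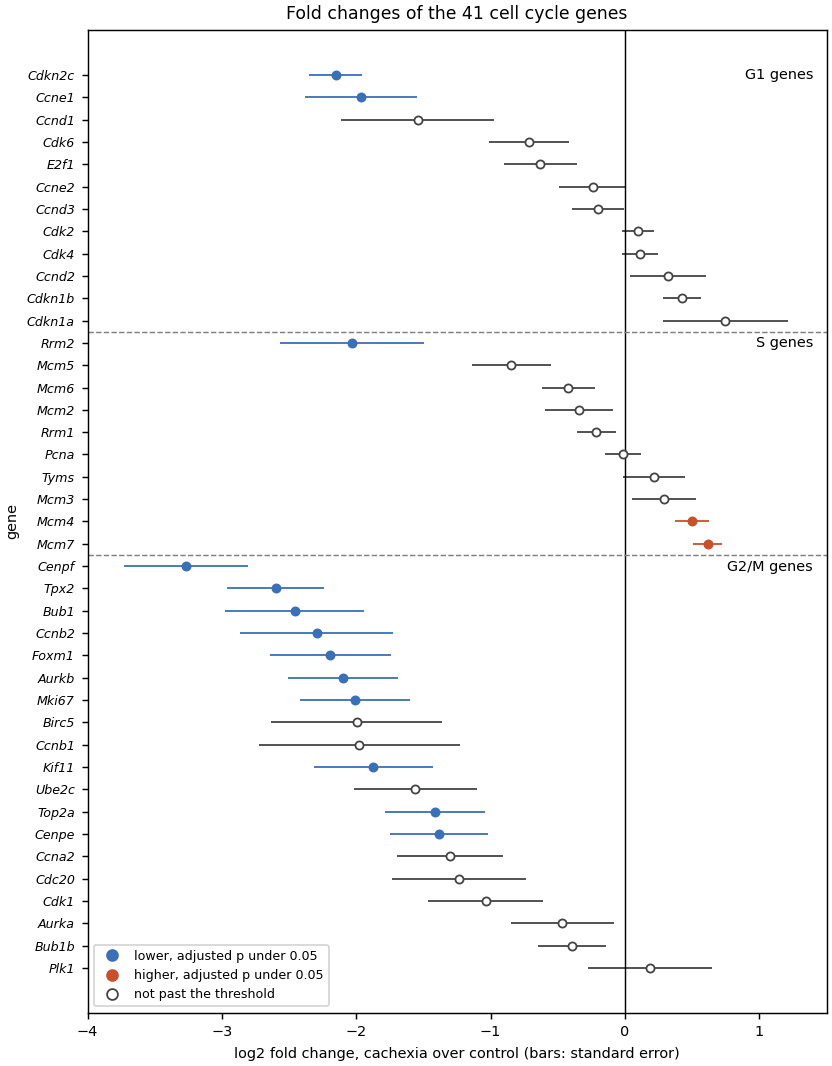
Log2 fold change of each gene, cachectic over control mice (x axis, n = 3 mice per group), with the genes on the y axis ordered within G1, S and G2/M. Bars are standard errors derived from the edgeR test. Filled points passed the edgeR threshold; the 10 filled G2/M points all lie left of 0, with Cenpf at −3.27, while most G1 and S genes lie close to 0.

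The count of lower genes depended on single mice. Without control replicate 1 it was 8 of 41 (6 of 19 in G2/M), and Rrm2, Ccnb2, Top2a, Kif11 and Cenpe were no longer past the threshold. Without control replicate 3 it was 3 of 41 (2 of 19 in G2/M), namely Cdkn2c, Tpx2 and Cenpf, and the fit called 446 genes lower in all. Without cachexia replicate 1 it was 6 (4 in G2/M), and without cachexia replicate 2 it was 9 (5 in G2/M). Without control replicate 2 it was 11 (9 in G2/M), and without cachexia replicate 3 it was 13 (12 in G2/M). The number of all tested genes called lower also moved, from 1381 with all 6 mice. It was 1086, 712 and 446 without control replicate 1, 2 or 3. Without cachexia replicate 1, 2 or 3 it was 982, 930 and 1142. The direction held in each of these fits for all 15 genes that passed the test.

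The summed level of the 19 G2/M genes in control replicates 1, 2 and 3 was 104, 55.4 and 90.9 CPM. It was 21.7, 27.6 and 38.1 CPM in cachexia replicates 1, 2 and 3. The groups did not overlap, and the mean of the control mice (83.5 ± 25.3, SD, n = 3) was 2.87 times that of the cachectic mice (29.1 ± 8.31, SD, n = 3). Within the controls, replicate 2 was the lowest in 19 of 19 genes and replicate 1 the highest in 16. Within the cachectic mice, replicate 1 was the lowest in 13 genes and replicate 3 the highest in 15. For S phase the sums overlapped, at 229, 181 and 205 CPM in controls and 207, 212 and 224 CPM in cachectic mice. For G1 they were 889, 938 and 1061 CPM in controls and 824, 696 and 809 CPM in cachectic mice, and Cdkn2c alone made up 347 CPM of the control mean of 963 CPM.

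**Figure D2:**
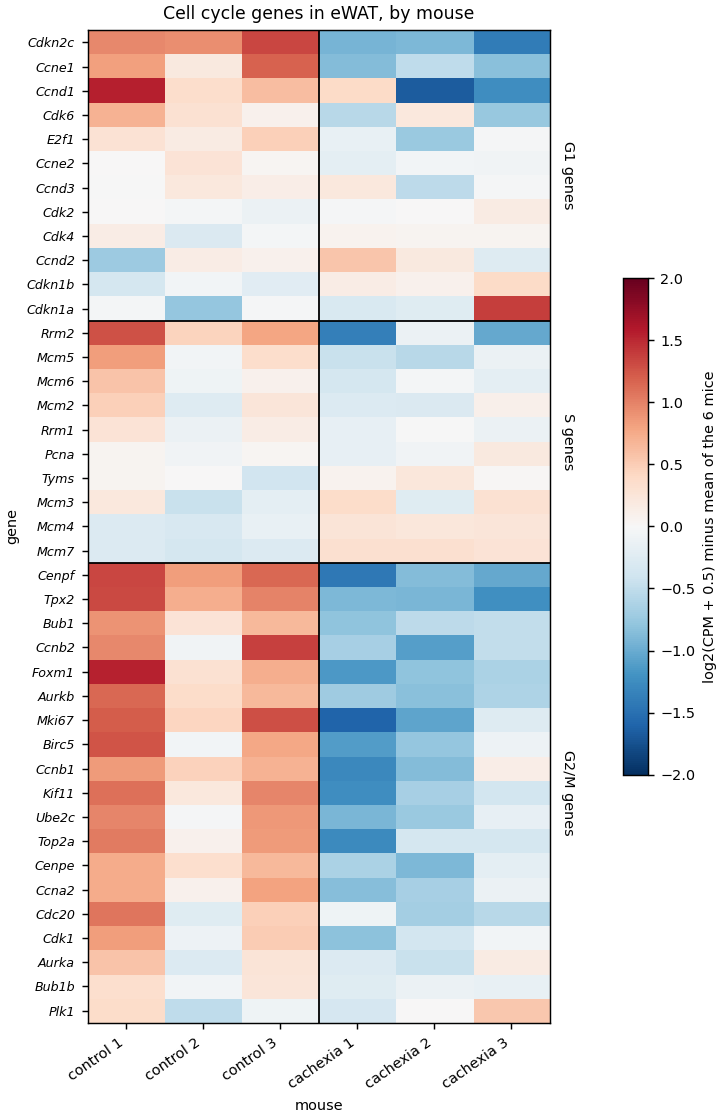
Heatmap of log2(CPM + 0.5) minus the mean of the 6 mice (color) for the 41 genes (y axis) in each mouse (x axis). The G2/M block is red in controls and blue in cachectic mice for most genes, palest in control replicate 2, while the S block is mixed and Cdkn1a is high in cachexia replicate 3.

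Many G2/M genes are read out through a pair of promoter elements, the CCAAT box bound by NF-Y and the cell cycle genes homology region (CHR) bound by the DREAM and MuvB complexes. The promoters below are those of the called G2/M and S genes with the smallest p-values that hold a CHR or an E2F element. They are shown because they let the arrangement be read directly. Each runs 5′ to 3′ on the strand of the gene, from 250 bases before to 20 bases after the start annotated by RefSeq (build GRCm38.p6), with capitals for CHR and CCAAT matches on either strand.
Cenpf: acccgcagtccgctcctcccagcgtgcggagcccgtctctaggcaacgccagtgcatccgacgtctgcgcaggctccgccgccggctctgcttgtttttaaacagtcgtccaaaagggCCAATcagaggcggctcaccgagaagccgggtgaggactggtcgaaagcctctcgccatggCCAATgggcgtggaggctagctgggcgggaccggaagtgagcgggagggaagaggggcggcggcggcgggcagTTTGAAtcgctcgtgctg
Mki67: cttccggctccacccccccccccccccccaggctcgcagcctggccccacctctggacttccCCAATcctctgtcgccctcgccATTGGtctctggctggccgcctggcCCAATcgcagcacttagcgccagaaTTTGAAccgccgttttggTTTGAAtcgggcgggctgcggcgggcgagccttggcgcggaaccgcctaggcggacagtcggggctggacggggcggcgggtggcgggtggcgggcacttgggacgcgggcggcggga
Bub1: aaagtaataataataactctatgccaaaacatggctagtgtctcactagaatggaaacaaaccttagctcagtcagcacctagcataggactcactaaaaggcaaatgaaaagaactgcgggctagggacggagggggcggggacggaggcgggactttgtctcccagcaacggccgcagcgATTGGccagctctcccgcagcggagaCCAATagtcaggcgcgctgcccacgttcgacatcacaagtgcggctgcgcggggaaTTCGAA
Kif11: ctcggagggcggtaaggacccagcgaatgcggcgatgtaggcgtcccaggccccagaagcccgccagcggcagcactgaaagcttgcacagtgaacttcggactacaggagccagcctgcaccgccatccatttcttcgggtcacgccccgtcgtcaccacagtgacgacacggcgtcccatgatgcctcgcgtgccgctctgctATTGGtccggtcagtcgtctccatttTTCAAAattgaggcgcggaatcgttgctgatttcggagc
Ccnb2: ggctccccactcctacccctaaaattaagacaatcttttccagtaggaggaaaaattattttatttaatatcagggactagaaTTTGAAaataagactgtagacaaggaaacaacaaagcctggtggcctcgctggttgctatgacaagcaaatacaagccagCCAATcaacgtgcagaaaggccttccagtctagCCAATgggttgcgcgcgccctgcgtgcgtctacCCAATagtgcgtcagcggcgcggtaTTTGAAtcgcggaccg
Mcm7: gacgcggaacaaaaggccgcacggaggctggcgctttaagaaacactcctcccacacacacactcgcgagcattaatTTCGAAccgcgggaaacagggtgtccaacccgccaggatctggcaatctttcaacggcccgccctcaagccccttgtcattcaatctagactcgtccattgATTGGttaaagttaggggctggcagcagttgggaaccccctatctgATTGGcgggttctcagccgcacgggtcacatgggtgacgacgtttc
These windows lie at chr1:189688067-189688336 (Cenpf, minus strand), chr7:135716360-135716629 (Mki67, minus), chr2:127831840-127832109 (Bub1, minus), chr19:37376132-37376401 (Kif11, plus), chr9:70421535-70421804 (Ccnb2, minus) and chr5:138171864-138172133 (Mcm7, minus). In Mki67 the CHR matches begin 116 and 98 bases before the start and CCAAT boxes begin 188, 166 and 141 bases before it. In Kif11 a CHR on the opposite strand begins 19 bases before the start and a CCAAT box 45 bases before it. In Cenpf the CHR lies 2 bases after the start, below CCAAT boxes at 132 and 71 bases before it. Mcm7, which rose, holds the rarer CHR form 173 bases before the start, upstream of its CCAAT boxes at 72 and 26.

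A window of 300 bases was at hand in the RefSeq promoter table used for 33 of the 41 genes (the promoters of Ccnd1, Ccnd2, Ccne2, Mcm4, Ccna2, Foxm1, Aurkb and Tpx2 were not analysed here). The CHR was searched as TTTGAA or TTCGAA, the latter its own reverse complement, the NF-Y box as CCAAT, and the E2F element as TTCCCGCC or TTTGGCGC, all on both strands. A CHR of either form stood in 12 of the 15 G2/M windows, 2 of the 9 S windows and 0 of the 9 G1 windows, against 21.7% of the 27025 genes with a window. CHR and CCAAT box together stood in the same 12 G2/M windows, against 8.61% of all genes. An E2F element stood in 4 of the 9 S windows and 0 of the 15 G2/M windows, against 3.07% of all genes. Among the G2/M genes, a CHR stood in 6 of the 7 windows of genes that fell and in 6 of the 8 of genes that did not pass the test. A match describes letters in a window and not a bound site.

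**Figure D3:**
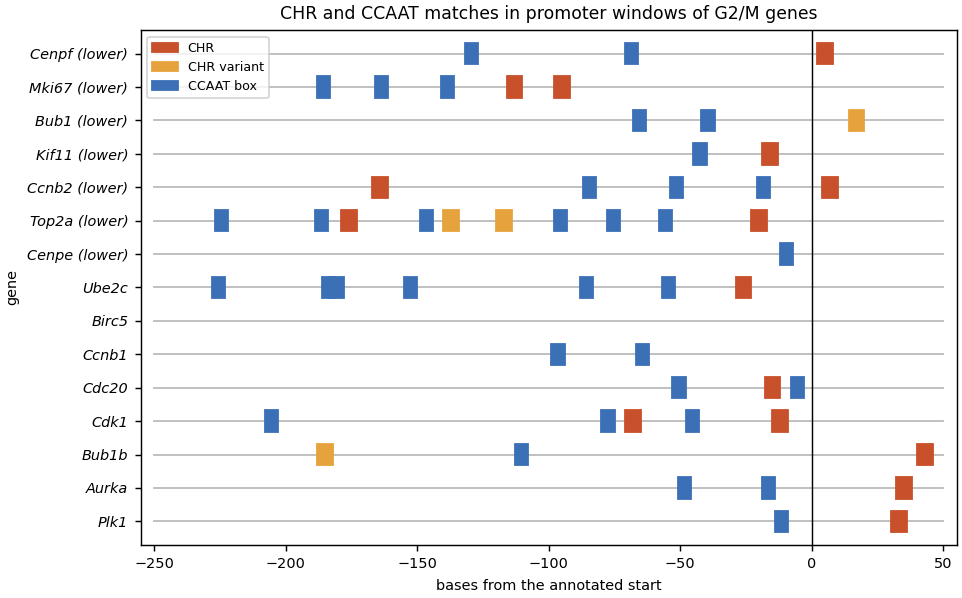
Positions of CHR matches (red), the CHR variant (orange) and CCAAT boxes (blue) in the windows of the 15 G2/M genes searched, from 250 bases before to 50 bases after the start (x axis), with genes on the y axis in order of p-value. Matches of both kinds are seen in 12 of the 15 genes, Birc5 has neither, and a CHR is seen in 6 of 7 genes marked lower and 6 of 8 unmarked genes.

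Proliferation markers and their transcription factor fell. Mki67 (chr7:135689784-135716361), which encodes the Ki-67 antigen of cycling cells, was at 20.4, 11.6 and 21.5 CPM in controls 1 to 3 and at 2.45, 3.81 and 7.02 CPM in cachectic mice 1 to 3. The lowest control mouse was above the highest cachectic mouse. The log2 fold change was −2.01 ± 0.41 (SE, adjusted p = 0.0162), a level 4.04-fold lower in cachectic mice. Top2a, the topoisomerase that untangles sister chromatids, was at 14.05, 7.05 and 12.3 CPM in controls and 2.45, 5.04 and 5.05 CPM in cachectic mice. Its groups were also apart, with a log2 fold change of −1.42 ± 0.37 (SE, adjusted p = 0.0371). Foxm1, the transcription factor that drives many G2/M genes, was at 7.98, 3.09 and 4.31 CPM in controls and 0.817, 1.17 and 1.38 CPM in cachectic mice. Control replicate 1 was the highest by far, yet the other controls were still above all cachectic mice, and the log2 fold change was −2.19 ± 0.45 (SE, adjusted p = 0.0169). Over all settings the highest adjusted p was 0.0677 for Mki67 (lost without control replicate 3 or cachexia replicate 2), 0.121 for Top2a (lost without any mouse but control replicate 2, with library totals, with a replicate block and in the FPKM fit with a pseudocount of 0.1) and 0.0533 for Foxm1 (lost without control replicate 3 or cachexia replicate 1).

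Of the mitotic cyclins and their kinase, Ccnb2 fell in the edgeR test. Ccnb2, a B-type cyclin, was at 2.86, 1.15 and 3.97 CPM in controls and 0.583, 0.307 and 0.721 CPM in cachectic mice, a log2 fold change of −2.30 ± 0.57 (SE, adjusted p = 0.0309), lost with limma-voom (0.0579) and without any mouse but control replicate 2 (highest adjusted p over all settings 0.117). The groups were apart, but its counts were as low as 5 and the pseudogene Ccnb2-ps, whose reads may not be separable from it, had 35 to 46 counts in each mouse and a log2 fold change of 0.11 ± 0.31 (SE, adjusted p = 0.831). Ccnb1, the main partner of Cdk1, had 39, 24 and 30 counts in controls and 1, 4 and 15 in cachectic mice. The groups did not overlap, yet cachexia replicate 3 was far above the other cachectic mice and the log2 fold change of −1.98 ± 0.75 did not pass the test (SE, adjusted p = 0.107), though it did without that mouse (−3.42, adjusted p = 0.0231, the lowest over all settings) and with limma-voom (−2.58, adjusted p = 0.0488). Ccna2, the cyclin of S phase and G2, was at 2.69 to 4.76 CPM in controls and 1.17 to 2.30 CPM in cachectic mice (log2 fold change −1.30 ± 0.40, SE, adjusted p = 0.0589), and passed with DESeq2, with the newer edgeR test, with a minimum of 10 counts and without cachexia replicate 3 (lowest over all settings 0.0183). It shares 12.5% of its exonic bases with Exosc9 on the other strand, which had 1964 counts in all and a log2 fold change of −0.41 ± 0.14 (SE, adjusted p = 0.0877). Cdk1, the mitotic kinase, was at 1.95 to 4.16 CPM and 0.992 to 2.03 CPM with overlapping groups (−1.04 ± 0.43, SE, adjusted p = 0.129).

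**Figure D4:**
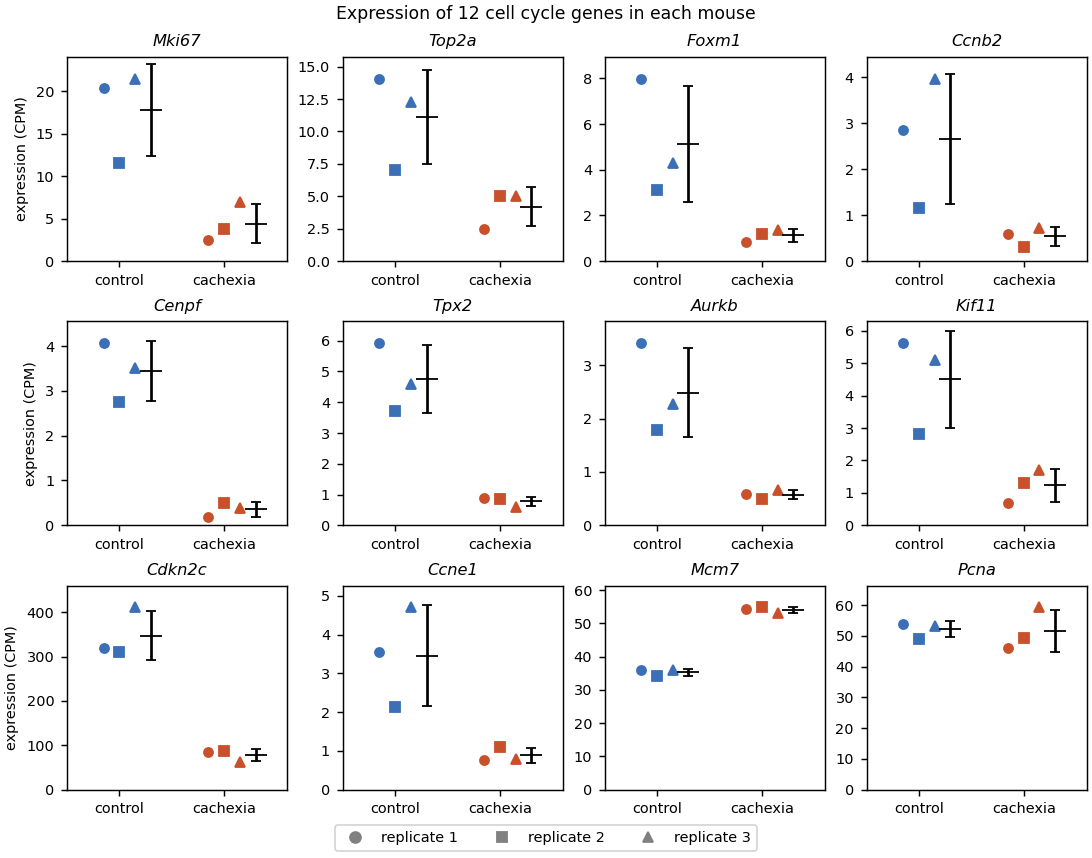
Expression of 12 cell cycle genes in CPM (y axis, from 0) in each mouse; symbols mark the replicate number, bars the mean and SD of 3 mice. The 8 G2/M genes, Cdkn2c and Ccne1 lie lower in every cachectic mouse than in any control mouse, Mcm7 lies higher at 52.97 to 54.8 CPM, and Pcna overlaps.

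Genes of the spindle and kinetochore fell in 4 of 4 cases. Cenpf (chr1:189640606-189688086), a large kinetochore protein, was at 4.06, 2.75 and 3.51 CPM in controls and 0.175, 0.491 and 0.393 CPM in cachectic mice. These are 81, 48 and 62 counts against 3, 8 and 6, groups far apart, and the log2 fold change of −3.27 ± 0.46 (SE, adjusted p = 0.00483), or 9.63-fold lower in the fit as an approximate size at such counts, was the largest of the 41 genes. Tpx2 (chr2:152847964-152895321), which builds microtubules around chromatin and activates Aurora A, was at 5.92, 3.73 and 4.59 CPM in controls and 0.875, 0.860 and 0.590 CPM in cachectic mice. The cachectic mice lay close together far below the controls, with a log2 fold change of −2.60 ± 0.36 (SE, adjusted p = 0.00463). Kif11, the motor that separates the spindle poles, was at 2.81 to 5.62 CPM in controls and 0.700 to 1.71 CPM in cachectic mice (−1.87 ± 0.45, SE, adjusted p = 0.0270). Cenpe, the kinetochore motor that moves chromosomes to the spindle equator, was at 2.98 to 4.11 CPM and 0.983 to 1.90 CPM (−1.38 ± 0.36, SE, adjusted p = 0.0373). Both had groups that did not overlap. Kif11 was lost without control replicate 1 or 3 or cachexia replicate 1 or 2 (highest adjusted p over all settings 0.0978), and Cenpe without any mouse but cachexia replicate 3, without a filter and in the FPKM fit with a pseudocount of 1 (0.124). Both were also lost with a replicate block.

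Of the mitotic kinases and checkpoint genes, 2 of 6 fell. Aurkb, the kinase of the chromosomal passenger complex, was at 3.41, 1.78 and 2.27 CPM in controls and 0.583, 0.491 and 0.656 CPM in cachectic mice. It was lower in every cachectic mouse, with a log2 fold change of −2.10 ± 0.41 (SE, adjusted p = 0.0144). Bub1, a checkpoint kinase of the kinetochore, had 30, 14 and 21 counts in controls and 2, 4 and 4 in cachectic mice (−2.46 ± 0.51, SE, adjusted p = 0.0180). Aurkb was lost without control replicate 3 (highest adjusted p over all settings 0.0562), and Bub1 without that mouse or cachexia replicate 1, with a replicate block and in the FPKM fit with a pseudocount of 1 (0.0736). Birc5, the survivin subunit of the passenger complex, was at 1.03 to 3.31 CPM in controls and 0.233 to 0.983 CPM in cachectic mice, and −1.996 ± 0.64 did not pass the test (SE, adjusted p = 0.0671) except with DESeq2 (0.0268, the lowest over all settings) or without cachexia replicate 3 (−2.70, adjusted p = 0.0466). Plk1, the Polo kinase of mitotic entry, was at 2.21, 0.974 and 1.47 CPM in controls and 1.17, 1.597 and 2.56 CPM in cachectic mice. It was the single G2/M gene with a positive fold change, its groups overlapped and its log2 fold change was 0.18 ± 0.46 (SE, adjusted p = 0.815), turning to −0.06 without control replicate 2 and −0.17 without cachexia replicate 3. Aurka, the kinase of the spindle poles (−0.47 ± 0.38, SE, adjusted p = 0.429), and Bub1b, the BubR1 checkpoint protein (−0.40 ± 0.25, SE, adjusted p = 0.308), also did not pass the test. Differences in response between these kinases were not tested.

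Neither partner of the anaphase-promoting complex passed the edgeR test. Cdc20, its activator, was at 3.86, 1.26 and 2.38 CPM in controls and 1.46, 0.798 and 0.918 CPM in cachectic mice, with a log2 fold change of −1.24 ± 0.50 (SE, adjusted p = 0.123). Ube2c, its ubiquitin-conjugating enzyme, was at 1.95 to 4.37 CPM and 0.817 to 1.71 CPM (−1.56 ± 0.46, SE, adjusted p = 0.0519), and passed with DESeq2, with the newer edgeR test, with a minimum of 10 counts and without cachexia replicate 3 (lowest over all settings 0.0141). Ube2c did not overlap between groups while Cdc20 did. Both were lower at an unadjusted edgeR p under 0.05, DESeq2 and limma on FPKM (pseudocount 0.1) each called 1 of them lower, and limma-voom and the pseudocount of 1 called 0.

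S phase genes went in both directions. Mcm7 (chr5:138164583-138172422), a subunit of the replicative helicase, was at 35.9, 34.1 and 36.0 CPM in controls and 54.4, 54.8 and 52.97 CPM in cachectic mice. Both groups were tight and apart, and Mcm7 rose by 0.61 ± 0.11 on the log2 scale (SE, adjusted p = 0.00980), 1.53-fold. Mcm4, of the same helicase, was at 17.3, 16.6 and 18.8 CPM in controls and 25.0, 24.5 and 24.9 CPM in cachectic mice (0.50 ± 0.13, SE, adjusted p = 0.0350). The other four subunits did not pass the test, with log2 fold changes of −0.34 ± 0.25 for Mcm2, 0.29 ± 0.24 for Mcm3, −0.85 ± 0.29 for Mcm5 and −0.42 ± 0.20 for Mcm6 (SE). Of the helicase, 1 subunit (Mcm5) was lower at an unadjusted p under 0.05, and DESeq2 called the same subunit lower, while the limma fits called 0 lower. Mcm4 was lost without any 1 of the 6 mice, without a filter and with a replicate block (highest adjusted p over all settings 0.130). Mcm7 was lost without control replicate 2 or 3 (highest 0.0589). Mcm7 shares 7.25% of its exonic bases with Ap4m1 and a smaller part with Cops6 on the other strand, whose log2 fold changes were −0.29 ± 0.12 and 0.23 ± 0.13 (SE, adjusted p = 0.122 and 0.260).

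Of the genes for replication and nucleotide supply, Rrm2 fell. Rrm2, the cell cycle-regulated subunit of ribonucleotide reductase, was at 5.52, 2.87 and 3.80 CPM in controls and 0.467, 1.78 and 0.721 CPM in cachectic mice. All cachectic mice were below all controls, with a log2 fold change of −2.03 ± 0.54 (SE, adjusted p = 0.0381). It did not pass without control replicate 1, 2 or 3, without cachexia replicate 1 or 3, or with a replicate block (highest adjusted p over all settings 0.102). Without cachexia replicate 2, the highest of the cachectic mice, it was −2.76 and passed. Its partner subunit Rrm1, which is present outside S phase too, was at 25.7 to 33.9 CPM in controls and 24.9 to 27.8 CPM in cachectic mice (−0.21 ± 0.15, SE, adjusted p = 0.339). Pcna, the sliding clamp of replication and repair, was at 53.9, 49.1 and 53.3 CPM in controls and 46.1, 49.2 and 59.3 CPM in cachectic mice. These overlapped, at a log2 fold change of −0.02 ± 0.13 (SE, adjusted p = 0.945). Tyms, thymidylate synthase, stood at 5.04 to 7.02 CPM and 6.82 to 7.92 CPM (0.21 ± 0.23, SE, adjusted p = 0.555).

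In G1, the strongest call of the 41 genes was the CDK inhibitor Cdkn2c (chr4:109660876-109667189), which encodes p18, an INK4 protein that binds Cdk4 and Cdk6. It was at 319, 311 and 411 CPM in controls and 85.0, 87.2 and 61.7 CPM in cachectic mice. The log2 fold change was −2.15 ± 0.20 (SE, adjusted p = 0.00139), 4.45-fold lower, and it passed the threshold under all 17 other settings. Per kilobase of gene, Cdkn2c had the highest level of the 41 genes in controls, at 129 CPM per kilobase against 29.0 in cachectic mice. The levels of the G2/M genes on that scale were no more than 1.77 in controls (Mki67). Cdkn1b, which encodes p27, was at 55.8, 68.9 and 61.4 CPM in controls and 79.7, 76.3 and 93.7 CPM in cachectic mice. It was higher in every cachectic mouse, but 0.42 ± 0.14 did not pass the test (SE, adjusted p = 0.0716), except with library totals as the scaling (0.0462). Cdkn1a, which encodes p21, was at 88.2, 52.8 and 88.5 CPM in controls and 72.7, 75.9 and 237 CPM in cachectic mice. Cachexia replicate 3 set its log2 fold change of 0.75 ± 0.46 (SE, adjusted p = 0.293), which was −0.04 without that mouse.

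Of the cyclins and kinases of G1 and of the G1/S transition, Ccne1 fell. Ccne1, cyclin E1, was at 3.56, 2.12 and 4.70 CPM in controls and 0.758, 1.11 and 0.787 CPM in cachectic mice. Its groups did not overlap, with a log2 fold change of −1.96 ± 0.42 (SE, adjusted p = 0.0191). It did not pass without control replicate 3, without cachexia replicate 1 or 3, or with a replicate block (highest adjusted p over all settings 0.0841). Ccne2, cyclin E2, was at 4.57 to 5.62 CPM and 3.91 to 4.36 CPM (−0.24 ± 0.25, SE, adjusted p = 0.534). It shares 17.4% of its exonic bases with Ints8 on the other strand, which had 3755 counts in all (−0.19 ± 0.13, SE, adjusted p = 0.325). Cdk2, the partner of both, was at 31.96 to 34.9 CPM and 33.9 to 38.8 CPM (0.10 ± 0.12, SE, adjusted p = 0.617). E2f1, an activating E2F factor, was at 7.34 to 9.24 CPM in controls and 3.69 to 6.36 CPM in cachectic mice, apart but not past the threshold (−0.63 ± 0.27, SE, adjusted p = 0.143).

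None of the 5 G1 cyclins and kinases passed the edgeR test, with 0 higher and 2 lower (Ccnd1 and Cdk6) at an unadjusted p under 0.05. DESeq2 called 1 lower, Ccnd1, and the limma fits called 0. Ccnd1, cyclin D1, was at 46.7, 19.9 and 24.0 CPM in controls and 20.2, 4.54 and 6.23 CPM in cachectic mice. Replicate 1 was the highest in each group, the groups overlapped by 1 mouse, and the log2 fold change was −1.54 ± 0.57 (SE, adjusted p = 0.0999). It was past the threshold without cachexia replicate 1 (−2.49, adjusted p = 0.0178) and with a replicate block (−1.74, adjusted p = 0.0116). The latter was the lowest adjusted p over all settings, and 0.243 the highest. Without control replicate 1 the log2 fold change was −1.08. Ccnd1 shares 23.4% of its exonic bases with Oraov1 on the other strand (−0.06 ± 0.12, SE, adjusted p = 0.758). Ccnd2, cyclin D2, was at 134, 247 and 235 CPM in controls and 327, 256 and 185 CPM in cachectic mice (0.32 ± 0.28, SE, adjusted p = 0.470). Ccnd3 (−0.20 ± 0.19), Cdk4 (0.11 ± 0.14) and Cdk6 (−0.71 ± 0.30, SE) had adjusted p-values of 0.5004, 0.610 and 0.135, Cdk6 passed without cachexia replicate 2 (0.0381), and Cdk4 shares 19.7% of its exonic bases with Tspan31 on the other strand.

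The 12 further lists of the cell cycle held 130 genes, 125 of them tested, of which 14 rose and 10 fell, with a median log2 fold change of −0.17. These pooled counts are near the 9% higher and 8.63% lower of all tested genes. The genes named from these lists are therefore given as single values and not as a result about the lists together. Among other CDK inhibitors 1 of 4 tested genes fell and 0 rose. Cdkn2b, which encodes the INK4 protein p15, was at 28.2, 18.9 and 30.8 CPM in controls and 5.48, 2.46 and 3.15 CPM in cachectic mice (−2.81 ± 0.33, SE, adjusted p = 0.00302). Of the 8 other cyclins and CDK partners 2 fell, Cks1b (−1.46 ± 0.16, SE, adjusted p = 0.0025) and Cks2 (−1.40 ± 0.37, SE, adjusted p = 0.0388), small subunits that bind Cdk1 and Cdk2. Of 12 pocket proteins and E2F factors 2 rose, namely Rbl2, which encodes p130 (0.68 ± 0.19, SE, adjusted p = 0.0446), and E2f7 (0.93 ± 0.27, SE, adjusted p = 0.0489).

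Of 23 tested genes among other mitotic genes 4 fell and 1 rose. Hmmr, a spindle protein, fell by 1.93 on the log2 scale and Kif23 and Racgap1, of the midzone, by 1.66 and 1.29. Cenpa, the centromeric histone, fell by 1.13. In this list 20 of the 23 had a negative fold change, with a median of −0.58 against −0.00306 over all tested genes. At an unadjusted edgeR p under 0.05, 12 of the 23 were lower and 1 higher, against 17% and 17.4% of all tested genes. In 10 every cachectic mouse was below every control mouse and in 1 above, where 20.1% and 20.4% of all tested genes did so. Pttg1, securin, rose in cachectic mice, from 25.3, 21.7 and 21.6 CPM in controls to 38.1, 44.9 and 63.3 CPM (1.09 ± 0.20, SE, adjusted p = 0.0116). Among 17 genes of origin licensing and firing Gins2, of the active helicase, fell by 1.76, while Orc3 and Orc5, of the origin recognition complex, rose by 0.51 and 0.69. Of 7 genes of nucleotide supply 2 rose, Shmt1 (1.51 ± 0.28, SE, adjusted p = 0.0120), of folate metabolism, and Umps (0.87 ± 0.13, SE, adjusted p = 0.0055), of pyrimidine synthesis. Of 6 tested genes of the G2/M switch Chek2, a DNA damage kinase, fell by 0.96.

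In 3 lists edgeR called 0 genes. At an unadjusted p under 0.05, the 6 DREAM and MuvB subunits had 1 higher and 0 lower, and the 14 tested DNA polymerase genes 1 higher and 0 lower. The 6 ubiquitin ligases of the cycle had 0 higher and 3 lower. Of all tested genes 17.4% were higher and 17% lower by that rule, and these counts are not given as a result about the lists.

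Some markers of other cells moved with the groups, where 8.63% of all tested genes were called lower and 9% higher. Lists of 6 or 7 genes with 1 call are given as single values and not as a result about the list. Of 8 genes of fat progenitors and fibroblasts, 3 fell (Col3a1, Col1a1 and Pi16) and 1 rose (Ly6a), and their summed level was between 5252 and 6009 CPM in controls and between 2480 and 3391 CPM in cachectic mice. The collagen gene Col3a1 was at 2651, 2118 and 2655 CPM in controls and 398, 174 and 244 CPM in cachectic mice. Of the mean sums of 5702 and 2904 CPM, Col3a1 made up 2475 and 272 CPM and Col1a1 632 and 104 CPM. Dcn, Cd34 and Dpp4 overlapped between groups, with log2 fold changes of −0.06, −0.03 and −0.12. Pdgfra was lower in each cachectic mouse (−0.75, adjusted p = 0.0518 in the edgeR test). Of 7 tested genes of T and NK cells, 1 fell (Trac), with sums of 9.51 to 15.6 CPM against 4.39 to 7.55 CPM. Of 6 genes of smooth muscle and pericytes 1 fell (Rgs5), with sums of 829 to 1141 CPM against 385 to 681 CPM. In the other direction, 3 of 8 endothelial genes rose, with sums of 1564 to 1650 CPM against 2236 to 3361 CPM. Of 9 tested neutrophil genes 9 rose, with sums of 28.2 to 49.1 CPM against 256 to 677 CPM. Ly6g had too few counts to be tested, at 0 in all 3 control mice and at 8, 10 and 6 counts in cachectic mice 1 to 3. Of 6 tested erythroid genes 6 rose, with sums of 253 to 451 CPM against 1334 to 2856 CPM. Of 5 tested neutrophil progenitor genes 3 rose (Elane, Ltf and Ngp) and 2 did not pass the test (Prtn3 and Camp). The sums of this list were 11.6 to 15.8 CPM against 31.9 to 197 CPM. Of the 197 CPM, in cachexia replicate 3, Ngp made up 106 CPM and Ltf 64.3 CPM. Mpo, Ctsg, Ms4a3 and Cebpe had too few counts to be tested. Mpo had 3, 3 and 3 counts in controls and 5, 7 and 7 in cachectic mice. Cebpe went the other way, with 8, 11 and 17 counts in controls and 2, 1 and 7 in cachectic mice. Ctsg had no more than 6 counts and Ms4a3 no more than 4, each highest in control replicate 2.

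The remaining lists overlapped between groups in their sums. Of 12 adipocyte genes 2 rose, Cidec (0.87) and Pnpla2 (1.08), and 1 fell, Lep (−3.14). In 4 of the 12, among them Plin1 and Car3, every cachectic mouse was below every control mouse, and in 2 above. Over all tested genes these shares were 20.1% and 20.4%. Car3 made up 21800 and 8955 CPM of the adipocyte mean sums of 54050 CPM in controls and 48020 CPM in cachectic mice. Of 10 macrophage genes 1 rose and 1 fell. Of 7 B and plasma cell genes, 6 mesothelial genes, 3 tested epithelial genes and 1 tested gene of epididymis and germ cells, 0 were called by edgeR. At an unadjusted p under 0.05, 2, 1, 0 and 0 of these were lower and 0 higher, against 17% and 17.4% of all tested genes. Of the B and plasma cell mean sums of 322.9 CPM in controls and 432.3 CPM in cachectic mice, Xbp1 made up 301.5 and 420.3 CPM. In that list 6 of 7 genes had a negative fold change. Its genes Cd79b and Ms4a1 were lower in every cachectic mouse (−1.24 and −1.16, adjusted p = 0.056 and 0.112 in the edgeR test). The epididymal defensin Defb2 was at 0 in every mouse. The part of these cell types in the levels of the G2/M genes was not tested.

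**Figure D5:**
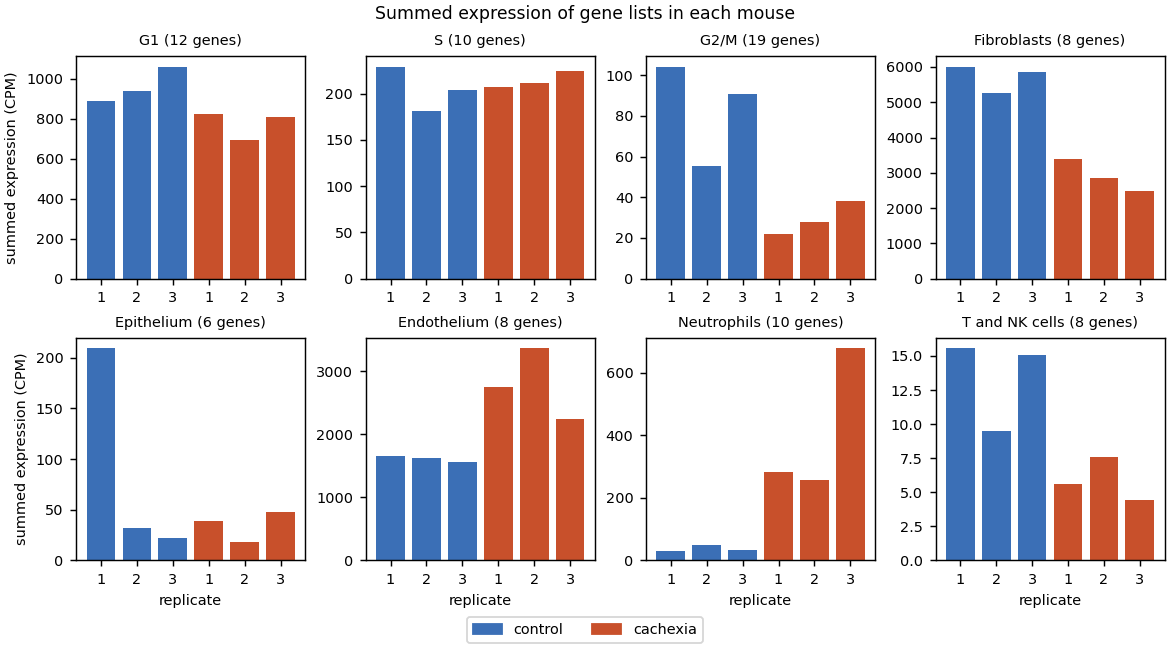
Summed expression in CPM (y axis, from 0) of the genes of each phase and of 5 marker lists, in each mouse (x axis, replicate number), 1 bar per mouse. The G2/M sum and the fibroblast sum, which includes Col3a1 and Col1a1, are lower in each cachectic mouse. The endothelial and neutrophil sums are higher in each, and control replicate 1 has an epithelial sum of 209 CPM.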

How the data were processed

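Total RNA of eWAT from 3 cachectic and 3 control mice was sequenced as paired-end reads on a NovaSeq instrument. For the counts, the authors aligned the filtered reads with Hisat2, counted them per gene with featureCounts (1.5.0-p3 in the submitters' notes) and deposited them without normalization. The deposited FPKM values, which the authors calculated from the count and the length of each gene, were used for 2 alternatives. The deposited table of comparisons by DESeq2 (1.16.1 in the notes) holds log2 fold changes and p-values, which were left out, as were 6 columns that hold values of single samples and 2 that hold group means. The notes name mm9, but 99.8% of the gene identifiers were in GENCODE M21 (GRCm38), 98.3% of these at the same coordinates, as were all 41 genes. Use of strand in counting is not given in the sources used here, which leaves genes with an overlapping neighbor uncertain.

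The count model was edgeR 4.0.16 under R 4.3.3 (filter by filterByExpr, TMM factors, quasi-likelihood test, no covariate, Benjamini-Hochberg adjustment over 16003 genes, threshold 0.05). CPM uses the TMM-scaled totals, and levels between genes were compared per kilobase. The standard error of a fold change was derived from the test, as its absolute log2 value over the square root of the F statistic. The biological coefficient of variation of 0.264 and the totals set the precision of a single gene. Fits were checked on simulated counts. Groups came from the sample labels. The sources used here do not state that each sample came from a separate mouse. The samples are called mice, and p-values measure the spread between them, which may be technical. No 2 samples agreed within sampling noise. The genes, phases and lists were chosen with earlier results of these data known. All 41 genes are named. Of the other cell cycle lists, the genes past the threshold are named (at most 4 per direction and list), with Mdm2 and Zmat3 added. Of the marker lists, some genes are named, among them genes that set a sum. Promoters were printed for at most 6 called G2/M or S genes with the smallest p and a CHR or E2F element. Alternatives were RLE factors, library totals alone, all genes with a count, genes with 10 or more counts in each sample, DESeq2 1.42.0, limma 3.58.1 (voom, or log2 FPKM with a pseudocount of 1 or 0.1), a replicate block, each mouse left out, and a further minimum of 1 for the size of the log2 fold change. Thinned counts and the newer quasi-likelihood test were chosen after seeing the data.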

Additional observations from a re-analysis of the deposited data

How the results depend on the processing

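No called gene of the 41 reversed its direction under the other settings, and of 248 values of called genes 56 no longer passed the threshold. Cdkn2c, Tpx2 and Cenpf passed in each setting that tested them. Over the single mice left out, genes called higher numbered 382 to 1197 and lower 446 to 1142 in all, members higher 0 to 1 and lower 3 to 13, G1 lower 1 to 3, S higher 0 to 1 and lower 0 to 1, and G2/M lower 2 to 12. A log2 fold change of at least 1 left 731 genes higher and 878 lower, with 0 of the 41 and 0 of the S genes higher. Without a filter 1 of the 41 was higher, in S phase. Library totals called 1 G1 gene higher (Cdkn1b). At least 10 counts in every sample left 0 S genes lower and 9 of the 41 lower among 33 tested, since 8 genes were no longer tested. DESeq2 called 2 S genes lower and 18 of the 41 lower. The newer quasi-likelihood test called 15 lower and thinning 12. The cause was not tested for the others.

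The labels do not say whether equal replicate numbers pair the mice. Deviations from the group means correlated at −0.00314, −0.0113 and 0.00849 for numbers 1, 2 and 3. With 3 mice per group these values cannot decide whether equal numbers belong together. With the number as a replicate block, 913 genes were higher and 968 lower, 1 of the 41 was higher and 8 were lower, with 1 S gene higher, 0 S genes lower and 6 G2/M genes lower.

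The genes that changed sign, Cdkn1a, Pcna and Plk1, passed the test in no setting tried. Over the single mice left out, the log2 fold change of Cdkn1a ran from −0.0377 (without cachexia replicate 3) to 1.03. That of Pcna ran from −0.1236 to 0.0579 (positive without control replicate 1, cachexia replicate 1 or 2) and was 0.0333 with library totals. That of Plk1 ran from −0.1678 (also negative without control replicate 2) to 0.5258. At these depths, G2/M genes with counts of 1 to 15 in cachectic mice have fold changes of approximate size.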

Other observations

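Genes of growth arrest and growth factor input are given here as single values, with 9% of all tested genes higher and 8.63% lower as background. Of 14 p53 target and growth arrest genes 4 rose, 1 fell and 9 did not pass the test. At an unadjusted edgeR p under 0.05, 4 were higher and 3 lower, against 17.4% and 17% of all tested genes. Mdm2 (−0.33, adjusted p = 0.0855) and Zmat3 (−0.54, adjusted p = 0.0977) were among these lower genes, and were lower in every cachectic mouse. Trp53inp1, a p53-induced stress protein, was at 48.3, 45.0 and 46.3 CPM in controls and at 109, 454 and 266 CPM in cachectic mice (log2 fold change 2.57 ± 0.45, SE, adjusted p = 0.0099). Gadd45b, a stress sensor, rose by 1.84, and the sestrins Sesn1 and Sesn2, which restrain mTORC1, rose by 1.03 and 0.91, while Gas1, a growth arrest protein of the cell surface, fell by 1.01. Of 8 genes of growth factor and MYC input 3 rose and 0 fell. Mycl, a MYC family member, was at 27.2, 18.1 and 28.6 CPM in controls and 83.3, 174 and 116 CPM in cachectic mice (2.33 ± 0.30, SE, adjusted p = 0.0036), and the MAX partners Mxd1 and Mxi1, which oppose MYC, rose by 0.59 and 0.69. All values are from the same edgeR fit.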
